A study of Mus musculus with 4 samples.

Results

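Immediate early genes are the first genes a cell switches on after growth factors, depolarization, handling or injury, because the factors that start them are already present and need only be phosphorylated. The ternary complex of SRF and Elk proteins and the cAMP-responsive factors of the Creb and Atf families act on their promoters, and the kinases Erk, Jnk and p38 act on those factors. Their mRNAs are usually short-lived, and many carry AU-rich elements in the 3′ UTR that recruit decay factors. In brain tissue and in cultured glia they are widely used as marks of recent stimulation.

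A set of 10 gene symbols (Fos, Fosb, Jun, Junb, Egr1, Ier2, Atf3, Btg2, Dusp1 and Klf4) was looked up among the 12515 transcript rows and 10213 symbols of an FPKM table. FPKM give the fragments of a transcript per kilobase of its length and relative to the size of the library. A row was found for 8 of the 10 symbols, each with a single row, so the sum per symbol equals the row. Fosb and Egr1 had no row in the table used here, so their levels were not analysed here. All 8 rows passed a mean of at least 1 FPKM over the libraries, the filter used for testing.

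The table describes poly(A) RNA of multicilia purified, together with the apical cortexes that carry them, from cultured mouse ependymal cells (mEPCs), the multiciliated cells that line the brain ventricles. Fmr-i1 is a single siRNA against Fmr1, the gene of the RNA-binding protein Fmrp, and Ctrl-i is the control siRNA. There were 4 libraries, Fmr-i1 of Exp.1 and Exp.2 and Ctrl-i of Exp.1 and Exp.2. The comparison asks which ciliary mRNAs change when Fmrp is depleted.

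Both groups came from C57BL/6 pups of either sex at postnatal day 0 to 1, whose telencephalic cells were grown in flasks and induced to differentiate by serum withdrawal. Fmr-i1 cells received 40 pmol of Fmr-i1 siRNA and Ctrl-i cells 40 pmol of Ctrl-i siRNA, in repeated transfections that began before serum withdrawal, and cilia were collected on day 10. Neurons had been shaken off early in the culture. The design calls the 2 libraries of a group biological replicates but does not say whether they came from different litters. The RNA of a preparation is measured in bulk, so less mRNA per cell and fewer cells that carry it cannot be told apart. All libraries are of purified cilia and none is of whole cells. A change in the cell body, in the RNA that reaches the cilia or in carried-over RNA therefore cannot be told apart either.

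For Fmr1 the Fmr-i1 libraries both held a value of 0 FPKM, against 0.42 FPKM in Ctrl-i of Exp.1 and 8.13 FPKM in Ctrl-i of Exp.2. An FPKM of 0 can also be a failed estimate, and zeros of this kind were one-sided, with 162 rows at 0 in Fmr-i1 of both experiments and 0 rows at 0 in either Ctrl-i library. Of 12 ependymal marker genes, 12 had a row, and their summed level was 1780 and 1613 FPKM in Fmr-i1 against 1365 and 1811 FPKM in Ctrl-i. None of 10 microglial markers had a row. Since no row was at 0 in either Ctrl-i library, a missing row is not a measured 0 and need not mean an absent transcript. Astrocyte markers summed to 1980 and 2022 FPKM in Fmr-i1, against 2867 and 2249 FPKM in Ctrl-i, with 7 of 8 genes present. Sums for the 3 of 9 neuronal markers present were 17.5 and 21.1 FPKM in Fmr-i1, against 31.4 and 14.6 FPKM in Ctrl-i. Oligodendrocyte markers summed to 114 and 142 FPKM in Fmr-i1, against 100.3 and 107 FPKM in Ctrl-i, with 5 of 10 genes present. Fibroblast and pericyte markers (3 of 8 present) reached at most 10.3 FPKM and endothelial markers (1 of 6) at most 2.3 FPKM in any library. The part of these cells in the values of the immediate early genes was not tested.

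Upstream sequence is shown for 4 members, because Fos and Junb varied together with the experiment and Jun and Btg2 were the members higher in Fmr-i1. The 200 bases before the RefSeq start of each gene (build GRCm38.p6, read 5′ to 3′ on the gene's strand) are given in lower case. Capitals mark matches on either strand to TGACG, the core of the cAMP-response element (CRE), to the full CRE TGACGTCA, which contains that core on both strands, to the CRE-like TGACATCA, and to TATAAA.
Fos, chr12:85473690-85473889, plus strand: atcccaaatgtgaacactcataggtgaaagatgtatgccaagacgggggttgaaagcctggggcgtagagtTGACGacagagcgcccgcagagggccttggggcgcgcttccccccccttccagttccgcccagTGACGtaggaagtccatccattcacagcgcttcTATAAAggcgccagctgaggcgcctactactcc
Junb, chr8:84978749-84978948, minus strand: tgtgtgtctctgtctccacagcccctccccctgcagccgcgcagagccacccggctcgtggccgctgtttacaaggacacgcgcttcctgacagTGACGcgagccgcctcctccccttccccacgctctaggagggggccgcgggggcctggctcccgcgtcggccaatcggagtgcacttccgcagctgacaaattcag
Jun, chr4:95052223-95052422, minus strand: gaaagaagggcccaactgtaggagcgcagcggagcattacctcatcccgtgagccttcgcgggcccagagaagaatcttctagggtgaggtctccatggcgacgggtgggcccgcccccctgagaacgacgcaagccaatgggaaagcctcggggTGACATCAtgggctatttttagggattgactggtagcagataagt
Btg2, chr1:134079156-134079355, minus strand: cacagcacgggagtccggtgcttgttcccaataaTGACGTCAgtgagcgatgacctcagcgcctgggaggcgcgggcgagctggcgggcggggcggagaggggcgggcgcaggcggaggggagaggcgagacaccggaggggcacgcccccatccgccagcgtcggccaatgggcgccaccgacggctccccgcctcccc

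The TGACG core was present in 6 of the 8 member promoters in the RefSeq-derived table (Fos, Fosb, Junb, Atf3, Btg2 and Dusp1), against 15.7% of all 32851 promoters of that length. In Fos the cores began 129 and 66 bases before the start and TATAAA began 33 bases before it. TATAAA was found in 9.96% of all promoters and in no other member. Btg2 and Dusp1 held the full CRE, which 1.47% of all promoters hold, 166 bases before the start in Btg2 and 143 bases before it in Dusp1. The TGACATCA of Jun lay 45 bases before the start, and 2.66% of all promoters hold these letters. The CArG box, the binding sequence of SRF, had no match in any searched member's 200 bases and one in 1.18% of all promoters. Bases farther upstream were not searched, so a CArG box there would not have been found. These are letter matches and not measured sites. Ier2 and Egr1 were not among the promoters used, while Fosb, which had no FPKM row, was.

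A second set of letters is the AU-rich nonamer TTATTTATT, shown because the mRNAs of immediate early genes are usually short-lived. Among the 3′ UTRs of the 8 transcripts, the nonamer was found in Fos and Dusp1, and in 5.71% of the 4922 tested rows whose 3′ UTR had a length in the members' range of 485 to 2199 bases. The nonamer is in capitals, with the bases around it, on the transcript strand, in the GENCODE M21 annotation of GRCm38.
Fos, nonamer at chr12:85477113-85477121, plus strand: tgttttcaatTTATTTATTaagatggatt
Dusp1, first of its nonamers at chr17:26506169-26506177, minus strand: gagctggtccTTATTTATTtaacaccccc

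The Dusp1 3′ UTR held 2 nonamers and that of Fos 1. The shorter letters ATTTA, which lie inside the nonamer, occurred 4 times in Fos, Jun and Dusp1, 5 times in Btg2, 3 times in Atf3, 2 times in Junb, 1 time in Klf4 and 0 times in Ier2. At least 1 ATTTA was thus present in 7 of 8 members, against 76.5% of the rows of comparable 3′ UTR length.

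The levels of the members could be set beside each other because FPKM are per transcript length. The mean level over the 4 libraries was highest for Fos, above 83.5% of all 12515 rows. Fos had 33.5 ± 6.83 FPKM (SD, n = 4) and Jun 29.6 ± 9.14 FPKM. Fos was above Jun in 3 of the 4 libraries, and only Fmr-i1 of Exp.2 had the reverse (28.1 FPKM for Fos, 40.4 FPKM for Jun). In Fmr-i1 the group means were 33.3 FPKM for Fos and 36.9 FPKM for Jun, an order that rested on that library. In Ctrl-i they were 33.7 FPKM for Fos and 22.3 FPKM for Jun. Junb followed at 15.8 ± 5.41 FPKM and was below Jun and above Atf3 in each of the 4 libraries. Atf3 (9.75 ± 1.60 FPKM), Btg2 (7.32 ± 3.81 FPKM) and Dusp1 (6.30 ± 2.78 FPKM) formed a middle group whose neighbours did not separate beyond their spread. Atf3 was above Btg2 in 3 of the 4 libraries, and only Fmr-i1 of Exp.1 had the reverse (11.8 FPKM for Btg2, 7.91 FPKM for Atf3). In Fmr-i1 Btg2 averaged 10.4 FPKM and Atf3 8.89 FPKM, an order that rested on that library. In Ctrl-i Btg2 averaged 4.27 FPKM and Atf3 10.6 FPKM. Ier2 (3.49 ± 1.87 FPKM) and Klf4 (3.28 ± 0.92 FPKM) were lowest, with Klf4 above 22.1% of all 12515 rows.

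The number of fragments behind these values sets their precision. Deposited FPKM multiplied by the spliced length of the named transcript came out as whole multiples of a fixed step in each library, within 0.1 fragment for 30 of the 32 member values. The steps imply about 955420 and 1063842 fragments in the Fmr-i1 libraries and 897026 and 1013860 in the Ctrl-i libraries. The members therefore rest on 1 to 137 fragments, and 8 of the 32 values on fewer than 10. The exact 95% Poisson intervals given below cover counting error only, and fragments without molecular identifiers are not independent molecules.

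**Figure D1:**
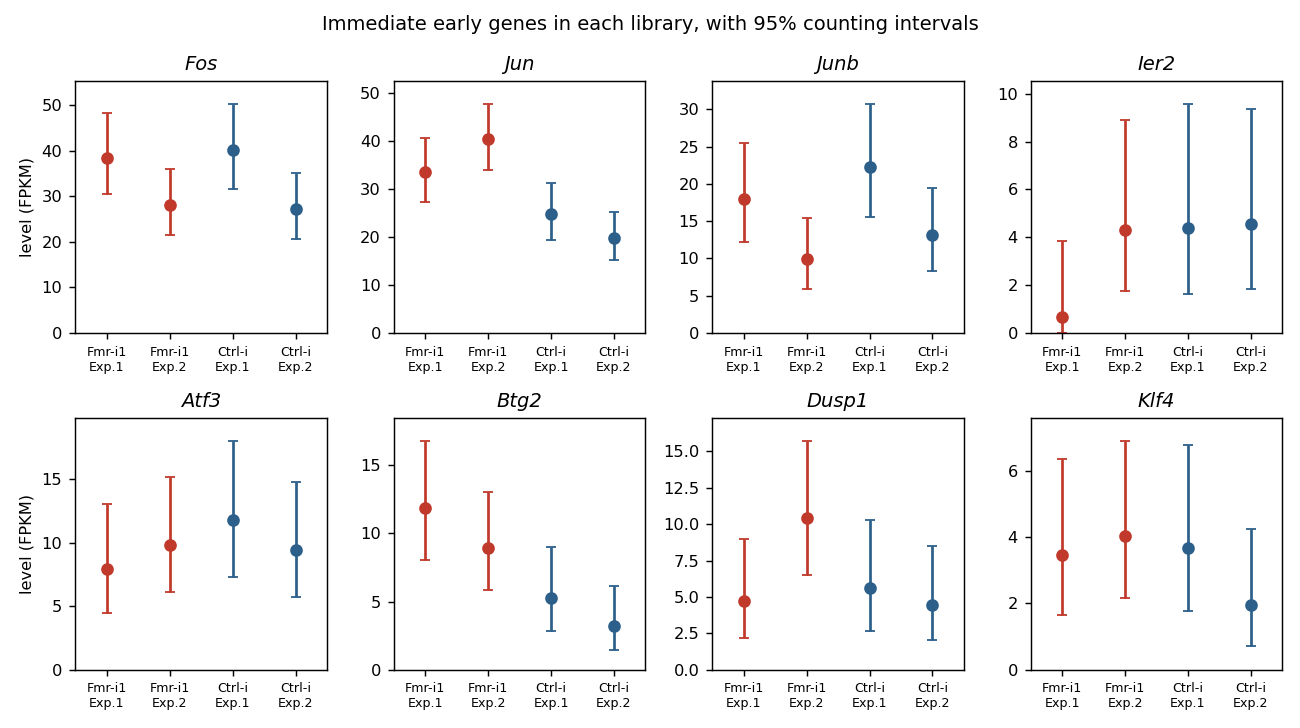
Level of each immediate early gene in FPKM (y axis, from 0, one scale per gene) in the Fmr-i1 libraries (red) and the Ctrl-i libraries (blue) of Exp.1 and Exp.2 (x axis), with exact 95% Poisson intervals as bars. Both Fmr-i1 points of Jun (33.5 and 40.4 FPKM) and of Btg2 (11.8 and 8.91 FPKM) lie above both Ctrl-i points. Fos, Junb and Btg2 are higher in Exp.1 of both groups.

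Among the members, Btg2 and Jun were higher in Fmr-i1 than in Ctrl-i in both experiments without overlap of the groups, Ier2 and Junb were lower in both experiments, and Fos, Atf3, Dusp1 and Klf4 went in opposite directions in Exp.1 and Exp.2. No member passed the test. With limma on log2(FPKM + 1), blocked by experiment and with p-values adjusted after Benjamini-Hochberg, 0 of 11898 rows (0%) had an adjusted p under 0.05, and 598 had an unadjusted p under 0.05, none of them a member. Adjusted p of the members lay between 0.945 and 0.998 in limma. An exact two-sided permutation test of a single gene cannot go below p = 0.333 with 2 libraries against 2.

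The 2 of 8 members higher in both experiments compare with 34.2% of all 11898 tested rows, and the 2 of 8 members lower in both with 16.6%. Higher in Fmr-i1 without overlap were 2 of 8 members and 25.7% of all tested rows. Lower without overlap was 1 of 8 members, against 11.2% of tested rows. The median of the members' log2 fold changes was 0.17, beside 0.16 for all tested rows, which were shifted upward in Fmr-i1 as a whole. Of the members, 4 lay above that overall median and 4 below it. The counts and the median of the members were thus near those of the table.

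**Figure D2:**
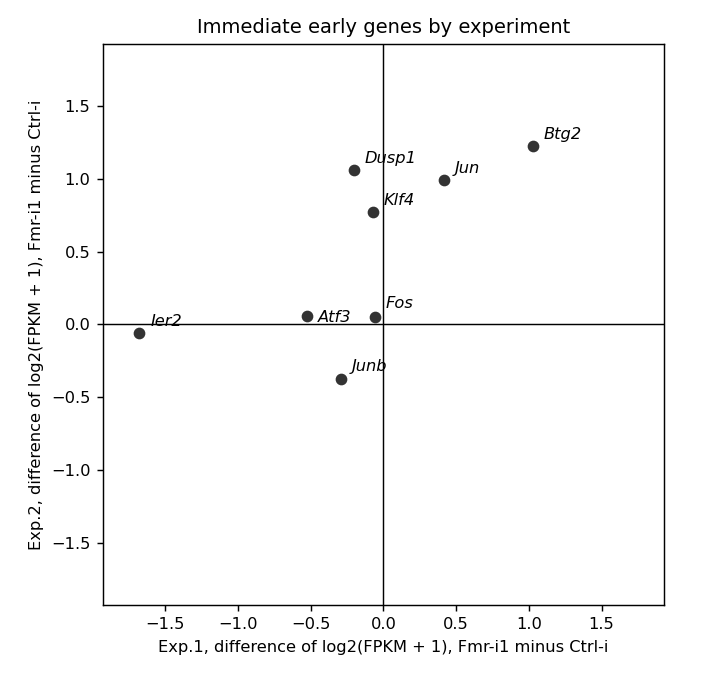
Difference of log2(FPKM + 1), Fmr-i1 minus Ctrl-i, of each immediate early gene in Exp.1 (x axis) and in Exp.2 (y axis), with 1 point per gene and lines at 0. Btg2 and Jun lie at the upper right (higher in both), Junb and Ier2 at the lower left (lower in both), and Dusp1 and Klf4 lie high in Exp.2 and below 0 in Exp.1.

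Fos, Jun and Junb encode the subunits that pair to form the AP-1 transcription factor. Fos (transcript ENSMUST00000021674, chr12:85473890-85477273, 4 exons) had 38.5 and 28.1 FPKM in Fmr-i1 of Exp.1 and Exp.2, against 40.2 and 27.1 FPKM in Ctrl-i. These are 77.6 and 63 implied fragments in Fmr-i1 and 76 and 58 in Ctrl-i. Exp.1 was higher in both groups and the groups overlapped throughout. Its log2 fold change was -0.0054 (SE 0.33), with an adjusted p of 0.998 in limma, and its sign depended on the library left out (-0.28 without Ctrl-i of Exp.2, 0.27 without Ctrl-i of Exp.1). The first Fmr-i1 value is one of the 2 member values that were not whole.

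Jun (ENSMUST00000107094, chr4:95049034-95052222, a single exon) had 33.5 and 40.4 FPKM in Fmr-i1, against 24.8 and 19.8 FPKM in Ctrl-i. The implied fragments were 102 and 137 in Fmr-i1 and 71 and 64 in Ctrl-i. Both Fmr-i1 libraries exceeded both Ctrl-i libraries, and Jun is the member with the most fragments behind its difference. In Exp.2 the intervals of 33.9 to 47.7 FPKM for Fmr-i1 and 15.2 to 25.3 FPKM for Ctrl-i did not overlap. In Exp.1 those of 27.3 to 40.6 FPKM for Fmr-i1 and 19.4 to 31.3 FPKM for Ctrl-i did. The ratio of Fmr-i1 to Ctrl-i was 1.35 in Exp.1 and 2.04 in Exp.2, and the log2 fold change was 0.71 (SE 0.36). In limma the unadjusted p was 0.106 and the adjusted p 0.945. As large a log2 fold change or a larger one was seen in 13.7% of all tested rows.

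Junb (ENSMUST00000064922, chr8:84976910-84978718, a single exon) had 17.9 and 9.88 FPKM in Fmr-i1, against 22.2 and 13.1 FPKM in Ctrl-i. These correspond to 31 and 19 fragments in Fmr-i1 and 36 and 24 in Ctrl-i. Within each experiment Fmr-i1 was the lower, but the groups overlapped, and the intervals of Fmr-i1 and Ctrl-i overlapped in both experiments. The log2 fold change was -0.33 (SE 0.39), with an adjusted p of 0.955 in limma. It was 0.028 without Ctrl-i of Exp.1 and 0.067 without Fmr-i1 of Exp.2.

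Fos and Junb shared a difference between the experiments. On the log2(FPKM + 1) scale, Exp.1 exceeded Exp.2 by 0.44 in Fmr-i1 and 0.55 in Ctrl-i for Fos. For Junb the excess was 0.80 in Fmr-i1 and 0.72 in Ctrl-i. Btg2 was also higher in Exp.1 of both groups, by 0.37 in Fmr-i1 and 0.57 in Ctrl-i. A difference at least that of the smaller of each pair was seen in both groups in 5.96% of tested rows for Fos and in 2.72% for Junb. The median of that difference over all rows was -0.049 in Fmr-i1 and 0.11 in Ctrl-i. For Fos and Junb the difference between experiments was larger than that between the siRNAs. Jun ran the other way in Fmr-i1, by -0.26, and by 0.31 in Ctrl-i.

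Btg2 and Ier2 are further early response genes. Btg2, an antiproliferative protein that binds the Ccr4-Not deadenylase (ENSMUST00000020692, chr1:134075170-134079120, 2 exons), had 11.8 and 8.91 FPKM in Fmr-i1, against 5.29 and 3.24 FPKM in Ctrl-i. Implied fragments were 31 and 26 in Fmr-i1 and 13 and 9 in Ctrl-i. Fmr-i1 exceeded Ctrl-i in both experiments and without overlap, with ratios of 2.24 in Exp.1 and 2.75 in Exp.2. Its log2 fold change of 1.13 (SE 0.47) was the highest of the members, and 5.08% of all tested rows had as high a value. The unadjusted p in limma was 0.0576 and the adjusted p 0.945. In Exp.1 the counting intervals were 8.04 to 16.8 FPKM for Fmr-i1 and 2.81 to 9.03 FPKM for Ctrl-i. In Exp.2 they were 5.82 to 13.1 FPKM for Fmr-i1 and 1.48 to 6.14 FPKM for Ctrl-i. The ends overlapped in both experiments, which does not test the difference.

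Ier2, a nuclear protein named for its immediate early response (ENSMUST00000060427, chr8:84661331-84662852, a single exon), had 0.69 and 4.32 FPKM in Fmr-i1, against 4.40 and 4.54 FPKM in Ctrl-i. That is 1 and 7 fragments in Fmr-i1 and 6 and 7 in Ctrl-i. The absence of overlap thus rested on 1 fragment in Fmr-i1 of Exp.1, since Fmr-i1 of Exp.2 was at a ratio of 0.952 to Ctrl-i. Its log2 fold change was -0.87 (SE 0.60), with an adjusted p of 0.95 in limma, and without Fmr-i1 of Exp.1 it was -0.04.

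The other 3 members are a stress-responsive factor, a phosphatase and a zinc finger factor. Atf3, a bZIP factor induced by many stresses (ENSMUST00000027941, chr1:191170296-191183340, 4 exons), had 7.91 and 9.86 FPKM in Fmr-i1, against 11.8 and 9.44 FPKM in Ctrl-i. It was lower in Fmr-i1 in Exp.1 only and the groups overlapped. Its Fmr-i1 value of Exp.2, at 20.8 implied fragments, is the other value that was not whole. The log2 fold change was -0.23 (SE 0.45), with an adjusted p of 0.968 in limma. Leaving out 1 library gave -0.086 without Ctrl-i of Exp.1, -0.090 without Fmr-i1 of Exp.1, and -0.38 without either library of Exp.2.

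Dusp1, the phosphatase that inactivates p38, Jnk and Erk (ENSMUST00000025025, chr17:26505590-26508519, 4 exons), had 4.73 and 10.4 FPKM in Fmr-i1, against 5.6 and 4.46 FPKM in Ctrl-i. One library stood apart, Fmr-i1 of Exp.2 with 22 fragments, while the other Fmr-i1 library had 9 and the Ctrl-i libraries 10 and 9. Its log2 fold change was 0.43 (SE 0.55) with an adjusted p of 0.956 in limma, and without that library it was -0.067.

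Klf4, a zinc finger transcription factor (ENSMUST00000107619, chr4:55527143-55532466, 5 exons), had 3.46 and 4.04 FPKM in Fmr-i1, against 3.68 and 1.95 FPKM in Ctrl-i. With 10 and 13 fragments in Fmr-i1 and 10 and 6 in Ctrl-i, no difference was detectable at this depth. The log2 fold change was 0.35 (SE 0.52), with an adjusted p of 0.959 in limma, and it was 0.019 without Ctrl-i of Exp.2 and 0.68 without Ctrl-i of Exp.1. Ctrl-i of Exp.2 was the low library and the other 3 were close to each other.

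**Figure D3:**
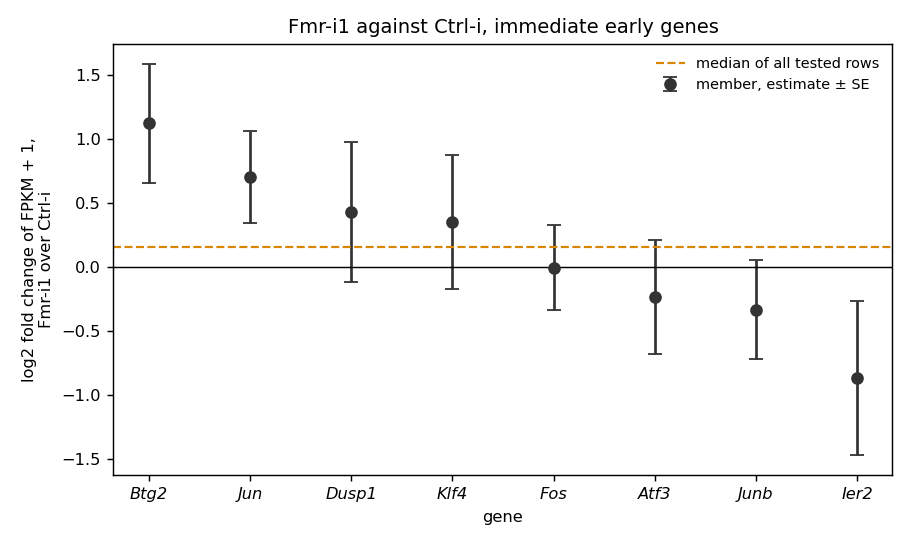
Log2 fold change of FPKM + 1, Fmr-i1 over Ctrl-i (y axis), of the immediate early genes (x axis, ordered from highest to lowest), as the limma estimate with its SE, and the median of all tested rows as a dashed line at 0.16. Btg2 (1.13) and Jun (0.71) are highest and Ier2 (-0.87) lowest, and 4 members lie on each side of the dashed line.

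Because all rows were shifted by a median of 0.16, directions were also read under 3 other scalings. After median scaling, quantile normalization or rescaling without mitochondrially encoded RNAs, Btg2 (log2 fold change 0.94 to 1.00) and Jun (0.52 to 0.56) still had a positive change. Fos and Atf3 then became lower in both experiments, next to Junb and Ier2, and Atf3 became lower without overlap. All rows moved with them, since 22.9% to 26.1% of tested rows were lower in both experiments under these scalings and 16.1% to 18.7% lower without overlap, while 23.7% to 26.5% were higher in both. Relative to the overall median, the reported log2 fold changes were 0.97 for Btg2, 0.54 for Jun, -0.49 for Junb and -1.03 for Ier2.

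The genes around this set were taken from 8 lists of related genes, 129 symbols in all, of which 95 had a row. Some of these symbols are second names of a listed gene. None of their rows was called by limma in either direction, with a smallest adjusted p of 0.771. The values that follow are sums over the rows of a symbol. Over all 9804 tested symbols, 35.6% were higher in Fmr-i1 in both experiments, 15.2% were lower in both, 27.2% were higher without overlap of the groups and 9.99% lower without overlap, and the median log2 fold change was 0.16. Under the 3 other scalings, the medians over rows stayed above 0 in the lists of other AP-1 subunits (0.076 to 0.14), other immediate early genes (0.14 to 0.19), upstream kinases and factors (0.15 to 0.19) and SRF targets (0.22 to 0.27). They were below 0 in the decay, heat shock and integrated stress lists under each of the 3 and in the ERK feedback list under 2 of them. All directions in the next paragraphs are on the deposited scale.

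In the list of other AP-1 and small Maf subunits, 5 of 8 genes had a row, 3 being higher in both experiments and 1 lower. Fosl2, a Fos relative, had 7.36 and 11.5 FPKM in Fmr-i1, against 4.09 and 3.92 FPKM in Ctrl-i. This was 46.0 and 80.0 fragments in Fmr-i1 and 24.0 and 26.0 in Ctrl-i, without overlap, and its log2 fold change was 1.03 (SE 0.47), with an adjusted p of 0.915 in limma. Maff, a small Maf protein, had 3.79 and 8.75 FPKM in Fmr-i1, against 0.02 FPKM in each Ctrl-i library. The Ctrl-i values imply 0.04 fragments each, less than 1, so the fitted log2 fold change of 2.74 (SE 0.54, adjusted p 0.757 in limma) depends on the pseudocount and no fold is given. Jund (4.39 and 3.19 FPKM in Fmr-i1, against 4.11 and 2.16 FPKM in Ctrl-i), Mafg and Mafk had log2 fold changes of 0.24, -0.026 and -0.11 in that order.

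Among other immediate early genes, 28 of 38 had a row and 27 were tested, with 16 higher in both experiments, 14 of these without overlap (27.2% of all symbols), and 0 lower in both. Their median log2 fold change was 0.33. Ier5, a relative of Ier2, had 7.35 and 9.76 FPKM in Fmr-i1, against 4.77 and 1.81 FPKM in Ctrl-i, and a log2 fold change of 1.24 (SE 0.53). Sgk1, a serum- and glucocorticoid-regulated kinase, had 38.4 and 21.4 FPKM in Fmr-i1, against 16.5 and 12.2 FPKM in Ctrl-i, and a log2 fold change of 0.97 (SE 0.37). Neither passed, with adjusted p of 0.915 and 0.909 in limma.

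The 4 most abundant genes of the list follow. Rhob, a small GTPase, had 174 and 203 FPKM in Fmr-i1, against 180 and 163 FPKM in Ctrl-i. Zfp36l1, which binds AU-rich elements and is also in the decay list, had 199 and 159 FPKM in Fmr-i1, against 165 and 196 FPKM in Ctrl-i. Ctgf, a matricellular protein, had 66.3 and 155 FPKM in Fmr-i1, against 104 and 40.7 FPKM in Ctrl-i. The log2 fold changes of the 3 genes were 0.13, -0.018 and 0.63 in that order. Gadd45g, a growth arrest and stress gene, stood at 64.5 and 61.5 FPKM in Fmr-i1, against 61.4 and 47.7 FPKM in Ctrl-i.

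Of the genes that act before the members, 17 of 22 symbols of kinases and factors had a row. Of the symbols without one, Mrtfa and Mrtfb are second names of Mkl1 and Mkl2, and Mkl2 had a row. In both experiments 9 genes were higher and 1 lower, with a median log2 fold change of 0.32. Mapk8, which encodes the kinase Jnk1, had 9.41 and 7.40 FPKM in Fmr-i1, against 4.43 and 2.70 FPKM in Ctrl-i, and a log2 fold change of 1.06 (SE 0.46). Its adjusted p was 0.915 in limma. Elk3, an SRF partner, had a log2 fold change of 0.66. Of the more abundant kinases, Mapk3 had a log2 fold change of 0.41, and the upstream kinases Map2k1 and Map2k2 had log2 fold changes of -0.070 and 0.34 in that order.

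The ERK feedback list of Dusp, Sprouty and Spred genes had a row for 6 of 14 genes. Of the 5 tested, 1 was higher in both experiments and none lower, with a median log2 fold change of 0.16, the same as over all symbols. Spry2, a receptor tyrosine kinase inhibitor, had 19.1 and 31.6 FPKM in Fmr-i1, against 20.9 and 7.09 FPKM in Ctrl-i, so Ctrl-i of Exp.2 was the low library here too. Dusp10, a phosphatase of Jnk and p38, had 5.25 and 5.72 FPKM in Fmr-i1, against 2.00 and 3.89 FPKM in Ctrl-i. Spred1, Dusp5 and Spred2 had log2 fold changes of 0.16, 0.051 and -0.0085 in that order.

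In the list of AU-rich mRNA decay factors, 14 of 18 symbols had a row. Of the symbols without one, Ksrp and Auf1 are second names of Khsrp and Hnrnpd, which had rows. In both experiments 4 genes were higher and 2 lower, with a median log2 fold change of 0.10. Cnot8, a deadenylase subunit of Ccr4-Not, had 28.8 and 35.8 FPKM in Fmr-i1, against 10.7 and 13.1 FPKM in Ctrl-i, and a log2 fold change of 1.37 (SE 0.36, adjusted p 0.844 in limma). Cnot1, the scaffold of that complex, had 0.13 and 8.60 FPKM in Fmr-i1, against 5.71 and 8.79 FPKM in Ctrl-i, so its log2 fold change of -1.30 rested on Fmr-i1 of Exp.1. Hnrnpd, Elavl1 and Cnot7 had log2 fold changes of 0.44, -0.32 and 0.24 in that order.

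Of the 8 lists, the SRF targets of the actin cytoskeleton had the largest median, 0.60, with 9 of 10 genes higher in both experiments, 8 of these without overlap (27.2% of all symbols), and none lower. Counted by row, 11 of 15 rows were higher in both experiments and 1 lower on the deposited scale, with a row median of 0.41, and under the 3 other scalings 6 to 7 were higher and 1 lower. Actb had 983 and 917 FPKM in Fmr-i1, against 752 and 742 FPKM in Ctrl-i. Acta2, smooth muscle actin, had 149.9 and 100.3 FPKM in Fmr-i1, against 73.3 and 55.9 FPKM in Ctrl-i, and a log2 fold change of 0.93 (SE 0.30, adjusted p 0.877 in limma). Tagln, a smooth muscle actin-binding protein, had 48.6 and 81.9 FPKM in Fmr-i1, against 35.0 and 28.4 FPKM in Ctrl-i. Tropomyosin Tpm1 and Actg1 had log2 fold changes of 0.78 and 0.21, and Cnn1, at 7.14 and 0.51 FPKM in Fmr-i1 against 0.03 and 0.42 FPKM in Ctrl-i, was mostly below 1 fragment. These genes are also expressed by perivascular and fibroblast-like cells, whose summed markers reached 3.0 and 10.3 FPKM in Fmr-i1, against 4.3 and 1.0 FPKM in Ctrl-i. The part of such cells was not tested.

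Stress lists showed no common direction. Of 11 heat shock genes, 2 were higher and 2 lower in both experiments, with a median of 0.13. Hspb1, a small heat shock protein, had 30.1 and 40.6 FPKM in Fmr-i1, against 17.3 and 5.46 FPKM in Ctrl-i, and Hspa1a, an inducible Hsp70, had 2.12 and 2.50 FPKM in Fmr-i1, against 7.52 and 3.64 FPKM in Ctrl-i. Their log2 fold changes were 1.73 (SE 0.50) and -0.93 (SE 0.52). The abundant chaperones Hsp90aa1, Hspa8, Hspe1 and Dnaja1 had log2 fold changes of 0.0096, -0.060, -0.37 and 0.26 in that order.

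For the integrated stress response, 7 of 10 genes had a row, 1 being higher and 2 lower in both experiments, with a median of 0.086. Atf4, the factor at the centre of that response, had 23.7 and 40.4 FPKM in Fmr-i1, against 23.9 and 14.3 FPKM in Ctrl-i. Ddit3, its downstream factor Chop, had 17.6 and 9.04 FPKM in Fmr-i1, against 17.5 and 3.32 FPKM in Ctrl-i. Ddit4, Atf5 and Sesn2 had log2 fold changes of -0.28, 0.086 and -0.76 in that order.

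**Figure D4:**
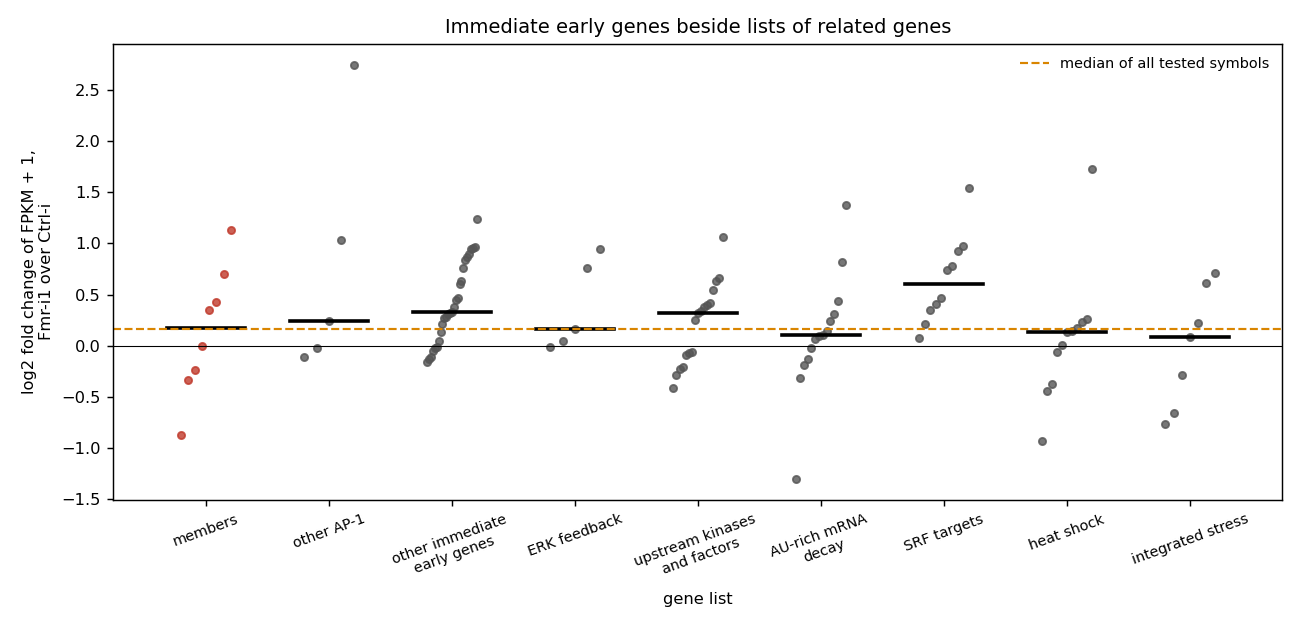
Log2 fold change of FPKM + 1, Fmr-i1 over Ctrl-i (y axis), of the immediate early genes (red) and of 8 lists of related genes (grey; x axis), with 1 point per gene, a black bar at each list's median and a dashed line at the median of all tested symbols (0.16). The members' median of 0.17 lies on the dashed line, and the SRF targets have the highest median (0.60).

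Over the 4 libraries the members' mean profile, centred on the log2(FPKM + 1) scale, was -0.037 and 0.18 in Fmr-i1 of Exp.1 and Exp.2, and 0.14 and -0.28 in Ctrl-i. The 5 genes nearest to it among 7028 candidates with a mean of at least 5 FPKM were P4ha1, Pcm1, Eef1g, Cog4 and Rps6, at Euclidean distances of 0.026 to 0.062. P4ha1, the nearest, had 7.96 and 9.63 FPKM in Fmr-i1, against 9.26 and 6.74 FPKM in Ctrl-i. The likeness is measured over 4 libraries and describes only these.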

How the data were processed

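Poly(A) RNA of 2 Fmr-i1 and 2 Ctrl-i libraries was analysed. The authors deposited FPKM for 12515 transcript rows. The submitters' processing notes name GRCm38/mm10, HISAT2 2.1.0 and featureCounts 1.5.3, the paper's methods name Cuffdiff, and which of them made the FPKM is not settled here. Whole multiples of 1 fragment were recovered from FPKM, GENCODE M21 spliced length and a fitted library total, and 95% Poisson intervals were computed from them. FPKM depend on the transcript chosen for a row. Rows averaging 1 FPKM or more were fitted on log2(FPKM + 1) with limma 3.58.1 in R 4.3.3 (variance trend, experiment as block because the study compares libraries within each experiment, Benjamini-Hochberg at 0.05), and the fit was checked on simulated data. Exact permutation tests used scipy 1.17.1. The members and lists were chosen with earlier results of these data known. Named genes are all members and, of each list, up to 4 by level and 2 by size of change, besides 5 genes of the nearest profile and Fmr1; 1 gene that the rule names is not reported here. As alternatives, pseudocounts of 0.1 and 5 FPKM were used, no filter, a mean of at least 5 FPKM, 3 scalings, sums per symbol, no block, no trend, and each library left out in turn.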

Additional observations from a re-analysis of the deposited data

How the results depend on the processing

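No member and no gene of the 8 lists was called by limma in the reported fit or in any of the 14 alternatives, and the smallest adjusted p of a member in an alternative was 0.643. Over all rows the count called was 0 in each fit except that without the replicate block, where it was 3. The experiment number does not pair the libraries by the spread itself (correlation of deviations of libraries of the same experiment -0.0822). Of 110 log2 fold changes of members under the alternatives, 105 kept their sign. The 5 that reversed were all with 1 library left out, which also drops the block: Fos (range -0.28 to 0.27) was positive without Ctrl-i of Exp.1 or Fmr-i1 of Exp.2, Junb (range -0.73 to 0.067) in the same fits, and Dusp1 (range -0.067 to 0.93) was negative without Fmr-i1 of Exp.2. The members' median log2 fold change was -0.13 to 0.42 with 1 library left out, negative without Ctrl-i of Exp.2, against 0.17 with all. Of the members, 2 to 5 were higher without overlap with 1 library left out and 1 to 4 lower, where fewer libraries make overlap rarer by construction (39.4% to 48.1% of all tested rows were higher and 22.4% to 26.9% lower). After median scaling, quantile normalization or rescaling without mitochondrially encoded RNAs, 4 members were lower in both experiments (22.9% to 26.1% of all rows) and 2 lower without overlap (16.1% to 18.7%). With a mean of at least 5 FPKM, which removes Ier2 and Klf4, 1 was lower in both experiments (15.8% of rows) and 0 without overlap (10.6%). The cause of these shifts was not tested. Depth limits Ier2 and Klf4 most, at 1 to 13 fragments a library.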
